A study of Mus musculus with 2 samples.

Results

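Schwann cells, the glia that ensheathe the axons of peripheral nerves, were taken from single-cell RNA sequencing of mouse periodontal tissue by 10 genes. A cell was taken as myelinating when it held at least 1 unique molecular identifier (UMI, a tag that counts each captured RNA molecule once) of at least 2 of *Ncmap*, *Prx*, *Cldn19*, *Drp2* and *Fam178b*. It was taken as non-myelinating with at least 2 of *Scn7a*, *Gfra3*, *Cdh19*, *Fabp7* and *Kcna1*. The 22 cells that met both conditions went to the set with more UMIs, and there were 0 ties. This gave 166 of the 1819 cells within the limits of 200 to 7500 genes, at most 60000 UMIs and at most 10% mitochondrial UMIs. The myelinating set held 92 of 936 cells in the library from ligature-induced periodontitis (LIP) and 24 of 883 in the control library, and the non-myelinating set held 27 and 23. Because the cells were chosen by their measured UMIs of these 10 genes, the levels of these genes and the contrast between both sets are descriptions.

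Both libraries came from WT C57BL/6 mice aged 8 weeks, either untreated (control) or with a ligature placed around the tooth to induce periodontitis and sampled 7 days later. Each library was 1 pool of 5 mice, so no spread between animals could be measured, no test between conditions was possible and no p-value is given. The control library held 1169 barcodes with 16472915 UMIs and the LIP library 1212 barcodes with 14236327 UMIs. The 95% intervals below are exact and cover counting error only. Barcode sequences shared by both libraries numbered 2, and 0 of them belonged to a chosen cell.

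A myelinating Schwann cell wraps a single large axon in many turns of its own membrane, which is held compact by proteins such as MBP and driven by the transcription factors SOX10 and EGR2. A non-myelinating, or Remak, Schwann cell holds many thin axons, including pain fibres, in separate troughs without myelin. The gingiva and the periodontal ligament are densely innervated, and after nerve injury Schwann cells are known to lower their myelin genes and to turn on repair genes under JUN.

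The label was checked against 6 genes of both kinds of Schwann cells that the rule did not use, among them *S100b*, *Sox10*, *Erbb3*, *Cryab* and *Gpm6b*. A member passed the check when it held at least 3 of these 6 genes, fewer than 3 of 5 markers of another class, and more UMIs of the 6 genes than of the epithelial or of the erythroid markers. These thresholds were chosen after the values had been seen. In the myelinating set 72 of 92 LIP cells and 18 of 24 control cells passed, and in the non-myelinating set 26 of 27 and 16 of 23.

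Most of the cells that did not pass carried the genes of other cell types. In the control myelinating set 5 of the 6 had more UMIs of epithelial keratin and desmosome markers, at a median of 30570 UMIs per cell. In the LIP myelinating set 6 of the 20 were highest in neutrophil markers, 5 in epithelial, 5 in the Schwann genes, and 1 each in erythroid, fibroblast, mural and endothelial markers. In the control non-myelinating set 4 of the 7 were highest in fibroblast and 2 in mural markers. Because such cells were large, the cells that did not pass held 62.6% of the UMIs of the control myelinating set, 51.9% of the LIP myelinating set, 59.9% of the control non-myelinating set and 5.25% of the LIP non-myelinating set. Sums over all members therefore mixed in much RNA of other cell types, and the levels below are from cells that passed unless all members are named. Doublets were not called, and whether these members were doublets was not tested.

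In the myelinating set passing went with the number of rule genes. In the control library 0 of 6 myelinating members with exactly 2 of the 5 genes passed, against 18 of 18 with more. In the LIP library 3 of 13 with exactly 2 genes passed, 5 of 8 with 3, 14 of 18 with 4 and 50 of 53 with all 5. In the non-myelinating set 0 of 7 control members with exactly 2 genes passed, against 7 of 8 in LIP, while all members with more genes passed in both libraries. Cells at the edge of the rule were thus among those that passed in LIP and not in control. Rule UMIs per 10000 UMIs of a cell ran from 22.0 to 168 over the non-myelinating control cells that passed and from 3.56 to 129.9 over those of LIP. Of the 26 LIP cells 6 were under 20, and they held 43.0% of the UMIs, against 0 of 16 control cells. Values without these 6 cells are given beside the results they move, and the limit of 20 was chosen after the values had been seen. In the myelinating set 1 control cell and 0 LIP cells were under 20. Just outside the rule, 76 control and 72 LIP cells held 1 of the 5 myelinating genes, at medians of 21090.0 and 12981.5 UMIs per cell.

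**Figure D1:**
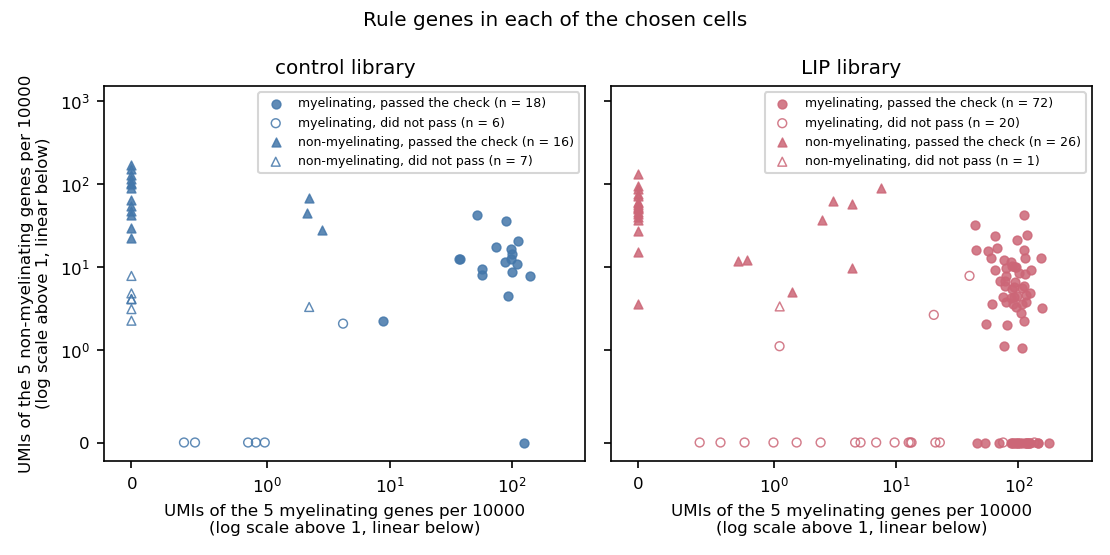
UMIs of the 5 myelinating (horizontal) and the 5 non-myelinating rule genes (vertical) per 10000 UMIs of each chosen cell, by library; filled symbols passed the check on other Schwann genes. The 18 control and 72 LIP myelinating cells that passed had medians of 90.8 and 94.9 on the horizontal axis, while most open symbols lay lower on both axes.

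Among cells that passed, the defining markers of most other classes were at or near 0, which the check itself favoured, since it left out cells rich in such markers. Macrophage markers (*Csf1r*, *C1qa*, *C1qb*, *Mrc1* and *Adgre1*) had 0 UMIs in 3 of the 4 groups and 2 UMIs in LIP non-myelinating cells, and neutrophil markers summed to between 12.4 and 30.4 CPM in each group, where CPM stands for UMIs per 1000000 UMIs of the group. The 5 fibroblast markers summed to 28.7 CPM in control and 3.80 CPM in LIP myelinating cells and to 0 in both groups of non-myelinating cells. Erythroid markers, led by *Hbb-bs*, summed to 527 CPM in control and 357 CPM in LIP myelinating cells, and to 740 and 310 CPM in non-myelinating cells. Epithelial markers, led by *Krt14*, summed to 211 and 144 CPM in myelinating and to 278 and 118 CPM in non-myelinating cells. The endothelial list summed to 134 and 403 CPM in control and LIP myelinating cells. *Ecscr* made up 115 and 342 CPM of these sums and *Egfl7* the rest, while *Cdh5*, *Emcn* and *Tie1* had 0 UMIs. The perineurial list summed to between 347 and 524 CPM in each group, led by *Tjp1* or *Itgb4*, and its gene *Lypd2* had 0 UMIs. Hemoglobin and keratin RNA were thus present at low levels in every group, and both were higher in the control library, and their part in the results was not tested.

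The share of myelinating cells differed more between the libraries than that of non-myelinating cells. Myelinating members were 9.83% of LIP cells (8.00 to 11.9%) and 2.72% of control cells (1.75 to 4.02%). Non-myelinating members were 2.88% (1.91 to 4.17%) and 2.60% (1.66 to 3.88%). The LIP library held 327 cells of the neutrophil class and the control library 54, and outside the 4 immune classes myelinating members were 16.9% (13.9 to 20.3%) of the LIP and 3.97% (2.56 to 5.85%) of the control cells. Non-myelinating members were 4.96% and 3.80% of these. Among cells that passed, myelinating cells were 7.69% of LIP and 2.04% of control cells and non-myelinating cells 2.78% (1.82 to 4.04%) and 1.81% (1.04 to 2.93%), or 4.78% (3.14 to 6.92%) and 2.64% (1.52 to 4.26%) outside the immune classes. The intervals given for non-myelinating cells overlapped. Per non-myelinating cell there were 3.41 myelinating cells in the LIP and 1.04 in the control library, or 2.77 and 1.12 among cells that passed. A share of cells in a digest of curetted tissue also depends on which tissue was taken and which cells survived, which was not tested. With 1 pool of mice per condition, the condition and the pool cannot be told apart.

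The mitochondrial limit bore on these counts. Outside the limits, 95 LIP and 5 control barcodes met the myelinating rule, of which 80 and 5 passed the check. Of all barcodes that met the myelinating rule, 49.2% in the LIP and 17.2% in the control library were over 10% mitochondrial UMIs, against 9.98% and 16.9% of the barcodes outside both sets. The non-myelinating rule was met by 6 LIP and 3 control barcodes outside the limits. The LIP barcodes outside the limits differed in makeup from those within, for their level of *Mbp* was 35724 CPM against 14668 CPM, of *Pmp22* 11414 against 18234 CPM and of the nuclear noncoding RNA *Malat1* 4321 against 32700 CPM. *Fos*, an immediate-early gene, was at 59.6 CPM outside and 4652 CPM within the limits. The 5 control barcodes outside the limits likewise had more *Mbp*, at 16517 against 8110 CPM within, and less *Malat1*, at 15788 against 40615 CPM. *Fos* was at 0 against 5955 CPM there, while *Pmp22* went the other way from LIP, at 17488.5 against 14706 CPM.

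**Figure D2:**
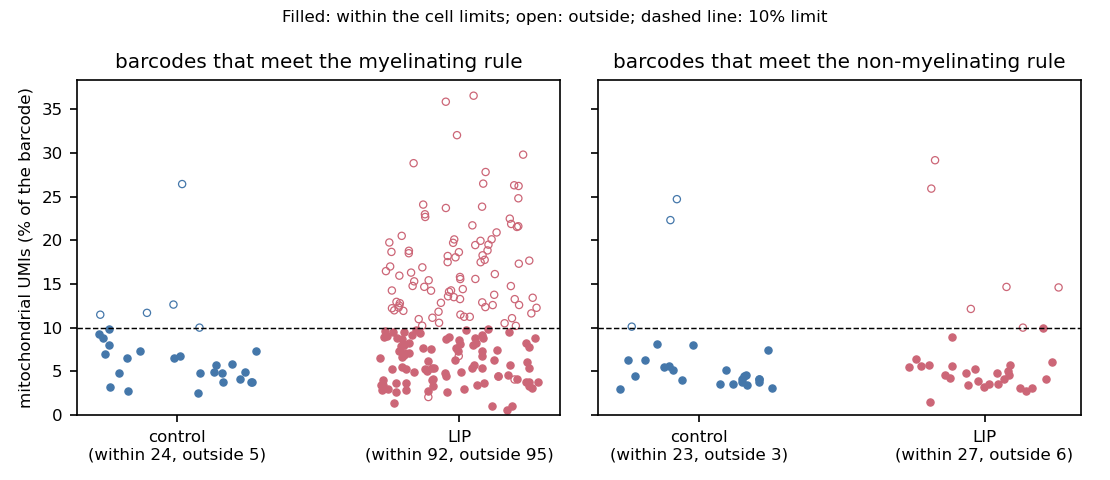
Share of mitochondrial UMIs (vertical, %) of each barcode that met the myelinating (left) or non-myelinating (right) rule, by library; filled points were within the cell limits and open points outside, and the dashed line marks 10%. Open points are frequent only in the LIP myelinating column, with 95 against 92 filled points.

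The levels of both sets were then set side by side. Among cells that passed, 106 of the 481 genes with at least 50 UMIs in each library, summed over both sets (22%), differed at least 2-fold in the same direction in both libraries, 49 higher (10.2%) in the myelinating and 57 higher (11.9%) in the non-myelinating set. These counts include genes of the rule, and a minimum on the summed UMIs favours genes high in the larger set, so they and the list counts between sets are descriptions. The non-myelinating levels of LIP include the 6 cells with few rule UMIs, and without them *Apoe*, *Entpd2* and *Mbp* were at 12397, 934 and 1183 CPM there. Over all members it was 165 of 1299 genes (12.7%), 57 higher (4.39%) in the myelinating and 108 higher (8.31%) in the non-myelinating set. Ratios are given as log2 of CPM values with 10 CPM added on both sides, and intervals are those of the ratio without the added amount.

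*Pmp22*, which encodes a protein of compact myelin, was at 14706 CPM (13980 to 15461) in control and 18234 CPM (17722 to 18757) in LIP myelinating cells, against 1912 and 1690 CPM in non-myelinating cells. *Mbp*, which encodes myelin basic protein, was at 8110 CPM (7572 to 8675) and 14668 CPM (14208 to 15138) against 1002 and 755 CPM. *Mal*, a proteolipid that sorts myelin membrane, was at 2317 and 3046 CPM in control and LIP myelinating cells. Of the compact myelin list, 4 of the 6 genes with enough UMIs were at least 2-fold higher in myelinating cells, beside 10.2% of all genes. In this list 0 were lower, and its median log2 ratio was 2.88 beside -0.09 over all 481 genes.

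A pair of myelin lipid enzymes lay on the same side. *Ugt8a*, which makes galactosylceramide, was at 498 and 847 CPM in control and LIP myelinating cells and at 0 and 18.6 CPM in non-myelinating cells. *Fa2h*, which hydroxylates the fatty acids of these lipids, was at 258 and 433 CPM with 0 UMIs in either group of non-myelinating cells, where 3 UMIs would be 46.3 and 18.6 CPM. The axon-contact genes *Nfasc*, *Mag* and *Gldn* were at 201, 335 and 517 CPM in control myelinating and at 0, 15.4 and 46.3 CPM in control non-myelinating cells, with *Nfasc* and *Mag* under 50 UMIs in this library. In LIP they were at 148, 353 and 258 CPM against 6.19, 55.7 and 136 CPM. Of the 5 measured genes of the axon-contact list, 1 was at least 2-fold higher in myelinating cells in both libraries, *Ndrg1*, beside 10.2% of all genes.

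Other genes outside the rule that stood highest in myelinating cells were *Mt3*, a metallothionein, *Pllp* and *Ogn*. *Pllp*, which encodes the myelin membrane protein plasmolipin, was at 1264 and 1519 CPM in myelinating and at 0 and 18.6 CPM in non-myelinating cells. *Ogn*, which encodes the small proteoglycan osteoglycin, was at 938 and 1956 CPM against 0 and 43.3 CPM. The transcription factor *Egr2* had 34 and 83 UMIs in myelinating cells, at 326 and 315 CPM, and 7 and 11 UMIs in non-myelinating cells, at 108 and 68.1 CPM.

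*Apoe*, which encodes a lipid transport protein, stood farthest toward the non-myelinating side among all genes measured in both libraries. Its level was 8172 CPM (7491 to 8898) in control and 7553 CPM (7135 to 7989) in LIP non-myelinating cells, against 38.3 and 22.8 CPM in myelinating cells. The log2 ratio of myelinating over non-myelinating cells was -7.40 in the control and -7.85 in the LIP library. *Entpd2*, an enzyme that breaks down extracellular ATP, was at 1079 and 576 CPM against 19.1 and 0 CPM. The adhesion molecules *L1cam* and *Ncam1*, which are textbook surface proteins of Remak cells, were at 586 and 447 CPM in control and 359 and 396 CPM in LIP non-myelinating cells. In myelinating cells *L1cam* had 0 UMIs in either library and *Ncam1* had 3 UMIs in the control and 0 in the LIP library.

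Among transcription factors, *Zeb2* and *Id3* were at least 2-fold higher in non-myelinating cells in both libraries. *Zeb2* was at 1881 and 755 CPM in non-myelinating and at 373 and 258 CPM in myelinating cells. *Sox10*, which every Schwann cell needs, was at 833 and 508 CPM against 555 and 429 CPM. *Foxd3*, a neural crest factor kept in glia, had 19 and 65 UMIs in non-myelinating cells, at 293 and 402 CPM, against 67.0 and 76.0 CPM.

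**Figure D3:**
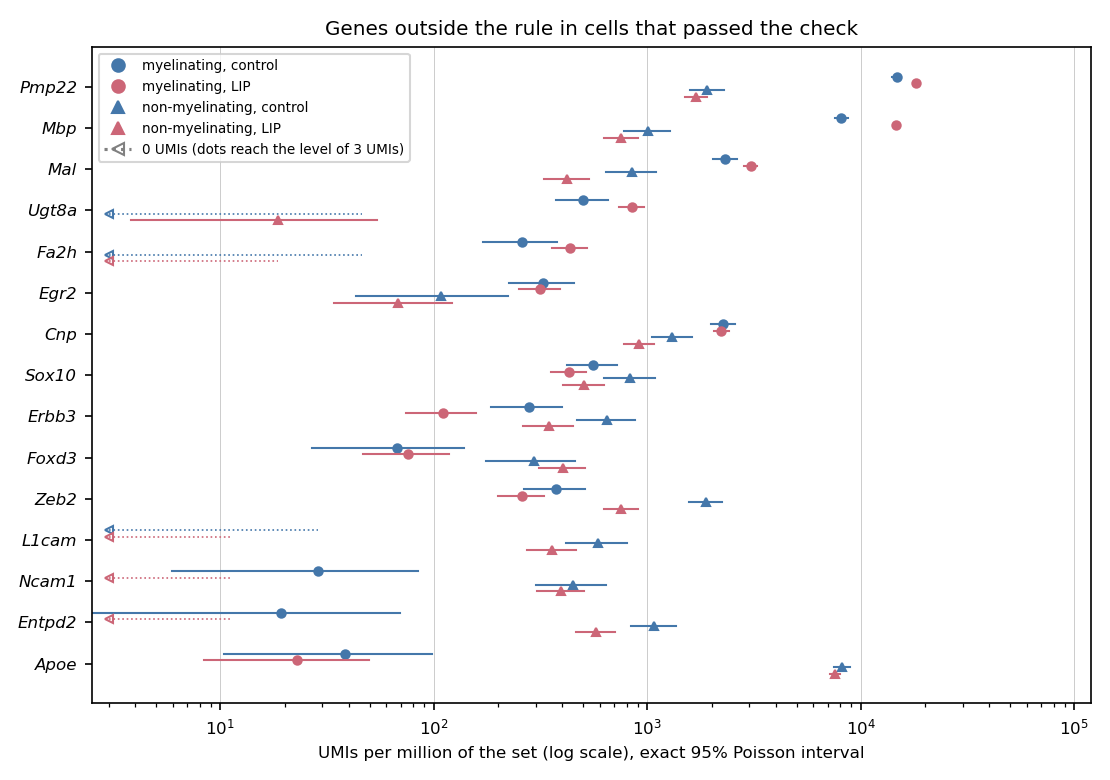
Levels in CPM of the set (horizontal, log scale) of 15 genes outside the rule, in myelinating (circles) and non-myelinating cells (triangles) that passed the check, control in blue and LIP in red, with exact 95% Poisson intervals. Open arrowheads stand for 0 UMIs, with dots up to the level of 3 UMIs. *Pmp22* lies at 14706 and 18234 in myelinating and at 1912 and 1690 in non-myelinating cells, and *Apoe* at 8172 and 7553 in non-myelinating and at 38.3 and 22.8 in myelinating cells.

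The rule genes themselves separated the sets unevenly, as a description. *Ncmap*, which encodes a small membrane protein of non-compact myelin, was at 2748 and 3038 CPM in myelinating cells and had 0 and 1 UMIs in non-myelinating cells. *Scn7a*, a sodium channel of non-myelinating Schwann cells, was at 2945 and 1430 CPM in non-myelinating and at 9.57 and 11.4 CPM in myelinating cells. *Kcna1*, a potassium channel, did not separate them 2-fold, for it was at 1927 and 1009 CPM in non-myelinating and at 1216 and 699 CPM in myelinating cells. Over the 153 members with at least 1000 UMIs, thinned to that number, the genes most like *Ncmap* included *Pmp22* (Spearman's rho 0.73), *Mbp* (0.68), *Secisbp2l* (0.66) and *Prx* (0.66). Those most like *Scn7a* were *Apoe* (0.71), *Chl1* (0.66), *Rarres2* (0.61), *Prnp* (0.60) and *Entpd2* (0.60). These cells came from 2 libraries and the genes were chosen for their likeness, so the values are descriptions.

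Promoter windows are shown for *Ncmap* and *Prx*, a pair of rule genes of the myelinating set whose windows held the letters GCGTGGG, a motif of the EGR family to which EGR2 belongs. The windows are the 250 bases before a RefSeq start on GRCm38.p6, 5′ to 3′ on the strand of the gene. They lie at chr4:135385673-135385922 on the minus strand (the start of a shorter *Ncmap* transcript, while the window of the longer held no match) and at chr7:27499074-27499323 on the plus strand (*Prx*). Capitals mark the motif, searched on both strands, and it was found in 4.30% of the 32851 windows of this length. It was also found in the window of *Scn7a* and not in those of *Cldn19*, *Pmp22* or *Mag*, so a match is only a description of the letters.
Ncmap: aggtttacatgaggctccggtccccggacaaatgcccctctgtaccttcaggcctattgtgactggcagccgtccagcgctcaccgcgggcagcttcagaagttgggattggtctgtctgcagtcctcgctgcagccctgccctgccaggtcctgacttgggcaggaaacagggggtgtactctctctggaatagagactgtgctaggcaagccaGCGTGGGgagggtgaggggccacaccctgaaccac
Prx: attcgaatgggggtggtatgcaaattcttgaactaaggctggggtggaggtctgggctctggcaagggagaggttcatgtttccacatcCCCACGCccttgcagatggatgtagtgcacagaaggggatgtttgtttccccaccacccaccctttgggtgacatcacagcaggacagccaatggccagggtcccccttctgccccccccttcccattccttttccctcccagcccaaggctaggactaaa

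LIP was then compared with control within the myelinating set, to ask whether its myelin program differed. Over all members 344 of 2509 genes differed at least 2-fold (13.7%), 205 higher (8.17%) and 139 lower (5.54%) in LIP. Among cells that passed, 80 of 1100 genes did so (7.27%), 33 higher (3%) and 47 lower (4.27%) in LIP.

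The rule gene *Fam178b* was among them, at 728 and 1796 CPM, while on the UMIs of all cells that passed the genes of the myelin protein lists were not. Of the compact myelin list 0 of 6 measured genes differed 2-fold, and of the axon-contact list 0 of 10, where *Gldn* was at -0.97. Without the large control cell described next, *Gldn* was at -1.18 and the median of the axon-contact list went from 0.17 to -0.16. The compact myelin list had a median log2 ratio of 0.33 beside 0.05 over all 1100 genes. Without that cell its median was 0.05 beside 0.10 over the 1020 genes then measured. *Mbp* per cell ran from 942 to 15730 CPM (median 8483) in control and from 3937 to 176292 CPM (median 13012) in LIP cells, so that the groups overlapped over much of their range. Its log2 ratio was 0.85 (0.75 to 0.96) on the summed UMIs and 1.07 when each cell weighed the same. *Pmp22* went from 0.31 to -0.06 on the same change.

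A single control cell weighed on this comparison. It held 22506 UMIs, 21.5% of those of the 18 control cells, and the next largest held 10299. It was the 1 control cell under 20 rule UMIs per 10000, and it carried 10 UMIs of *Ncmap* and 14 of *Sox10*. From this cell came 118 of the 152 control UMIs of *Fgl2*, 49 of 50 of *Mgp*, 40 of 44 of *Lyz2*, 47 of 48 of *Dkk3* and 34 of 43 of *Lgi4*, each among the 10 genes farthest below control in LIP. Without it, the log2 ratio of *Pmp22* was 0.01 and of *Mbp* 0.55, and *Mgp* and *Dkk3* turned to 1.11 and 2.24. *Cxcl14* likewise had 78 control UMIs of which 97.4% lay in 1 other cell. Leaving out the cell with 22506 UMIs, 67 of the 1100 genes differed 2-fold, and 37 were shared with the 80 genes above.

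Of the 1100 genes, 15 were past 2-fold higher (1.36%) and 17 past 2-fold lower (1.55%) in LIP by all 3 measures, which are summed UMIs, summed UMIs without the cell richest in the gene in each library, and each cell weighing the same. The lower genes included *Cpe*, carboxypeptidase E, at 498 CPM (372 to 653) in control and 102 CPM (67.6 to 149) in LIP, with UMIs in 13 of 18 and 14 of 72 cells. *Fasn*, the fatty acid synthase, was at 278 CPM (186 to 399) against 83.6 CPM (52.4 to 126), with UMIs in 10 of 18 and 17 of 72 cells. *C1ql3*, a secreted C1q-related protein, was at 354 against 76.0 CPM, and *Col4a2*, a basement membrane collagen chain, at 440 against 201 CPM. *Gfra1*, a receptor subunit for GDNF, was at 316 against 114 CPM, but its log2 ratio was -0.81 without the large control cell, which held 48.5% of its control UMIs. *Fgl2* and *Cxcl14* were lower by all 3 measures too, on the UMIs of few cells.

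Of the 13 measured genes of myelin lipid and cholesterol synthesis *Fasn* was the 1 that differed 2-fold, a share near the 7.27% of all genes. The median log2 ratio of the list was 0.47. Without the large control cell *Fasn* was under 50 UMIs and no longer compared. Of the 12 genes then measured 0 differed 2-fold, beside 5.69% of all genes, with a list median of 0.30. *Scd1*, a fatty acid desaturase outside the list, was at a log2 ratio of -2.06, and at -0.76 without the large control cell. *Hmgcs1*, an early enzyme of cholesterol synthesis, was at 756 CPM (599 to 943) in control and 1341 CPM (1204 to 1488) in LIP, and *Ugt8a* was at 498 and 847 CPM.

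The genes higher in LIP by all 3 measures included *Pmvk*, *Ucp2*, *Tubb2a*, *Pdlim2* and *S100a9*. *Pmvk*, phosphomevalonate kinase of the cholesterol pathway, had 3 UMIs in control cells and 48 in LIP cells, a log2 ratio of 2.31 (1.03 to 4.99). *Ucp2*, a mitochondrial carrier, was at 105 CPM (52.6 to 188) against 384 CPM (312 to 466), and *Tubb2a*, a beta-tubulin, at 95.7 against 262 CPM. *S100a9*, a neutrophil protein, was at 38.3 against 258 CPM, and in the cells outside both sets it was at 7413 and 20131 CPM. At 1000 UMIs per cell it was found in 5.56% of control and 23.3% of LIP myelinating cells, beside 13.1% and 25.6% of vascular endothelial cells. The endothelial cells were not put through the check, so they can include cells with markers of other classes. The median depths were 4945.5 and 2795 UMIs in myelinating and 7415.5 and 9237.5 UMIs in endothelial cells. The share in myelinating cells did not exceed that in endothelial cells in either library, and the source of this RNA was not tested.

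In the receptor list of the myelinating set 3 of 4 measured genes were lower in LIP, *Erbb3*, *Lgi4* and *Gfra1*, beside 4.27% of all genes. *Erbb3* was also a gene of the check, so its level in cells that passed is a description. Without the large control cell the log2 ratios of *Erbb3* and *Lgi4* were -0.77 and -0.19. *H2-K1* and *H2-D1*, class I antigen-presentation genes, were at -1.73 and -1.35 and, without it, at -0.68 and -0.58. Of the basal lamina list 1 of 11 measured genes, *Col4a2*, was lower, and of the transcription factors 0 of 6 differed. *Jun*, the injury factor, was at 1388 CPM in control and 820 CPM in LIP cells, with UMIs in 6 of 18 and 21 of 72 cells, a log2 ratio of -0.75, or -1.04 without the large control cell. *Atf3*, past 2-fold lower, was at 421 and 186 CPM with 59.1% of its control UMIs in 1 cell. Of the 9 measured immediate-early and heat-shock genes, *Dnajb1* was past 2-fold higher, with 68.9% of its LIP UMIs in 1 cell and a log2 ratio of 0.75 without the large control cell, and *Fosb*, at 1283 against 634 CPM, lower, with a log2 ratio of -0.81 without its richest cells. Without the large control cell *Egr1* went from -0.77 to just past 2-fold lower.

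Within the non-myelinating set the genes farthest apart between libraries included the metallothioneins, small proteins that bind zinc and copper. Over all members 169 of 1123 genes differed at least 2-fold (15%), 84 higher (7.48%) and 85 lower (7.57%), and among cells that passed 62 of 717 (8.65%), 37 higher (5.16%) and 25 lower (3.49%) in LIP. The median log2 ratio over the 717 genes was 0.13. LIP cells that passed held 161523 UMIs against 64854 in control, so the summed minimum favours genes high in LIP here too. *Mt2* and *Cxcl1* reached it through LIP alone. Without the 6 LIP cells under 20 rule UMIs per 10000, 450 genes reached 50 UMIs and 18 of them (4%) differed 2-fold, 13 higher (2.89%) and 5 lower (1.11%), of which 13 were among the 62.

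*Mt1* had 14 UMIs in the 16 control cells and 496 in the 26 LIP cells, a level of 216 CPM (118 to 362) against 3071 CPM (2806 to 3353). Per cell it ran from 0 to 1649 CPM in control cells, with a median of 0 and 9 cells at 0, and from 0 to 9620 CPM in LIP cells, with a median of 1726 and 4 cells at 0. The groups overlapped at their low end, and most LIP cells lay above most control cells. The log2 ratio was 3.77 (3.07 to 4.71), 3.75 without the richest cell of each library, 2.96 with each cell weighing the same and 3.48 without the 6 cells.

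*Mt2* followed *Mt1*, with 2 UMIs in control and 126 in LIP cells and a log2 ratio of 4.27 (2.78 to 7.72), or 2.63 over all members. It was found in 2 of 16 control and 18 of 26 LIP cells. Thinned to 1000 UMIs per cell, *Mt1* was found in 18.8% (4.05 to 45.6%) of control and 73.1% (52.2 to 88.4%) of LIP non-myelinating cells, beside 13.0% and 6.39% of neutrophils, at median depths of 3991.5, 5044.5, 6784.5 and 3915 UMIs. Myelinating cells held both genes in either library, *Mt1* at 4586 and 6893 CPM and *Mt2* at 1063 and 1405 CPM. Outside both sets *Mt1* was at 1922 CPM in control and 1370 CPM in LIP cells and *Mt2* at 1183 and 753 CPM. Neither was higher in LIP in this pool of cell classes. Neutrophil-class cells numbered 54 in control and 327 in LIP, and their part was not tested. At 1000 UMIs per cell *Mt1* was found in 42.1% of control and 23.9% of LIP fibroblast and osteogenic cells. In mural cells the share was 54.05% and 36.4%, in T cells 16.3% and 4.76% and in B cells 6.49% and 5.56%. It was higher in LIP in macrophages, at 40% and 44%, and endothelial cells, at 3.28% and 4.88%. The intervals of each pair overlapped. Epithelial values are not given.

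The upstream windows of *Mt2* and *Mt1* are shown because both genes were higher in LIP and are neighbours, with 5514 bases between the end of *Mt2* and the start of *Mt1* on chromosome 8 in GENCODE M21. They lie at chr8:94172368-94172617 and chr8:94178839-94179088 on the plus strand of GRCm38.p6, 250 bases before each RefSeq start. Capitals mark TGCACNC or TGCGCNC, the core letters of the metal response element, on either strand. They occur 3 times for *Mt2*, from 223, 128 and 50 bases before the start, and 1 time for *Mt1*, from 23 bases before it, and in 21.4% of all windows of this length.
Mt2: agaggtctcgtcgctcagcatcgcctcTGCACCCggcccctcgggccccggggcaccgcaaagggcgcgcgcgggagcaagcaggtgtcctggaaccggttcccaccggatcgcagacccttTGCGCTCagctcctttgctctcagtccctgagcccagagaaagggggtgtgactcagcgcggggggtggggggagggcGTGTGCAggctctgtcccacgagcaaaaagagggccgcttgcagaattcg
Mt1: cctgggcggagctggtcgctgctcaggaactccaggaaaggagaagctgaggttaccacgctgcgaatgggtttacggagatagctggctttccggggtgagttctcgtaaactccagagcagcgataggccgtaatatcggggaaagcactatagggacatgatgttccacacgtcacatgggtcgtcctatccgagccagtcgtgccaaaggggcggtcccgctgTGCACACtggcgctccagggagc

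Of the stress and metal list 3 of 4 measured genes were higher in LIP non-myelinating cells, beside 5.16% of all genes, with a median log2 ratio of 2.69 for the list. Without the 6 LIP cells of few rule UMIs it was 2 of 3, beside 2.89% of all genes. The median was then 1.71, and *Mt2* was under 50 UMIs. The third gene was *Socs3*, an inhibitor of cytokine signalling. It was at 278 CPM (165 to 439) in control and 873 CPM (735 to 1030) in LIP, with UMIs in 6 of 16 and 15 of 26 cells. *Nfkbia*, the inhibitor of NF-kappaB, was at 200 CPM (107 to 343) against 644 CPM (526 to 780), and *Junb*, an immediate-early factor, at 509 CPM (350 to 715) against 1393 CPM (1217 to 1587). All 3 lay past 2-fold also without the richest cell and with each cell weighing the same. Outside both sets *Nfkbia* went from 331 to 1263 CPM and *Socs3* from 85.4 to 201 CPM. Without the 6 LIP cells the log2 ratios of *Socs3*, *Nfkbia* and *Junb* were 1.71, 1.70 and 1.54. *Fos* and *Egr1*, further immediate-early genes, had log2 ratios of 0.40 and -0.39.

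By all 3 measures 22 of the 717 genes were past 2-fold higher (3.07%) and 18 past 2-fold lower (2.51%) in LIP. Others of the higher genes were *Cd63*, a tetraspanin of endosomes, at 570 CPM (402 to 786) against 1795 CPM (1595 to 2014), with UMIs in 12 of 16 and 25 of 26 cells. *Arpc3*, a subunit of the actin-branching Arp2/3 complex, was at 77.1 against 322 CPM, *Itgb8*, an integrin that activates TGF-beta, at 216 against 508 CPM, and *Postn*, the matrix protein periostin, at 339 against 1083 CPM. *Pou3f1*, a transcription factor of Schwann cells on the way to myelination, was at 108 CPM (43.4 to 222) against 303 CPM (224 to 401), with UMIs in 5 of 16 and 10 of 26 cells. *Cxcl1*, a neutrophil-attracting chemokine, had 1 UMI in control and 65 in LIP cells, but 83.1% of these lay in 1 cell and 5 of 26 cells had any. Without the 6 LIP cells of few rule UMIs, *Cd63*, *Itgb8* and *Pou3f1* were at 0.80, 0.83 and 0.46 and no longer past 2-fold, while *Postn* was at 1.37. *Phlda1* and *Tubb3* rested on few cells as well, with 51.8% and 59.6% of their LIP UMIs in 1 cell.

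Genes lower in LIP non-myelinating cells included *Utrn*, *Zbtb20*, *Chl1* and *Zeb2*, a set of adhesion, cytoskeletal and nuclear factors. *Utrn*, the dystrophin relative utrophin, was at 617 CPM (441 to 840) in control, with UMIs in 16 of 16 cells, and at 167 CPM (110 to 243) in LIP, with UMIs in 16 of 26. *Zeb2* was at 1881 CPM (1562 to 2246) against 755 CPM (627 to 902), while outside both sets it was at 59.9 and 190 CPM. *Chl1*, an L1-family adhesion molecule, was at 956 CPM (733 to 1226) against 359 CPM (273 to 464). All 4 genes lay past 2-fold by all 3 measures, as did *Kcna6*, *Csmd1*, *Cadm2*, *Itm2a* and *Col5a3*, whereas *Lars2* was at -0.99 without its richest cells. Without the 6 LIP cells *Utrn*, *Csmd1* and *Col5a3* were still past 2-fold, at -1.61, -1.14 and -1.07, and the others were not, with *Zbtb20*, *Zeb2* and *Chl1* at -0.99, -0.97 and -0.92, *Kcna6* and *Itm2a* at -0.86 and -0.75 and *Cadm2* at -0.58.

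**Figure D4:**
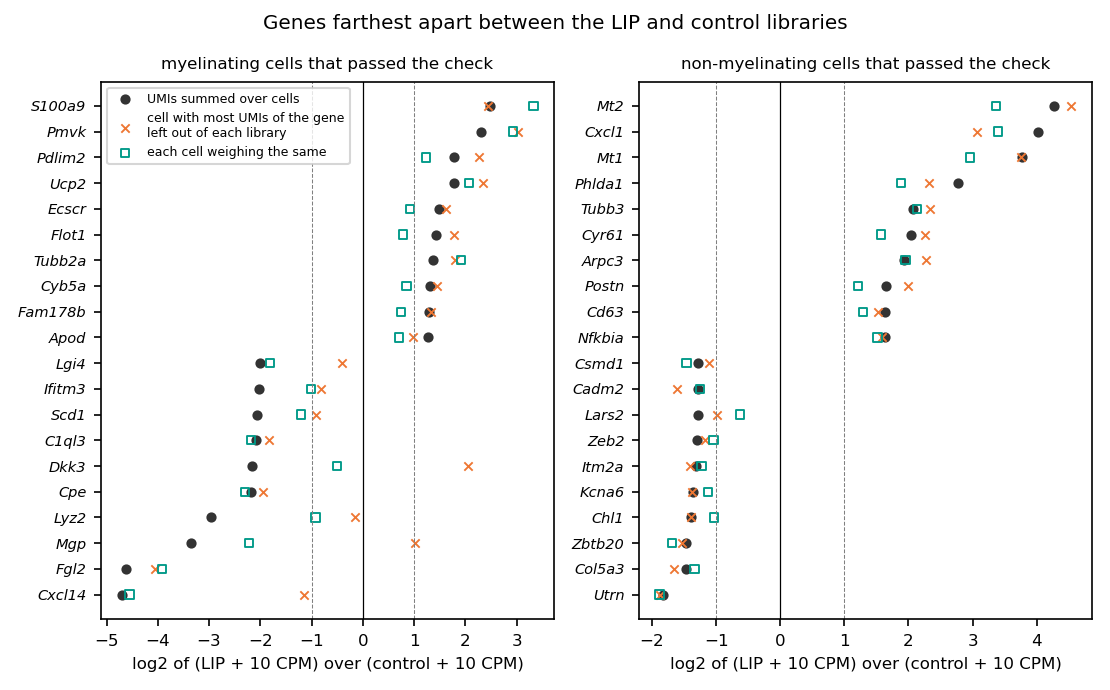
Log2 ratio of LIP over control (horizontal, 10 CPM added on both sides) of the 10 highest and 10 lowest genes in myelinating (left) and non-myelinating cells (right) that passed the check, by summed UMIs (circles), without the cell richest in the gene (crosses) and with each cell weighing the same (squares). The crosses of *Mgp*, *Lyz2*, *Dkk3* and *Lgi4* lie far from their circles, and the 3 symbols of *Mt1* lie between 2.96 and 3.77.

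Of the list of non-myelinating and immature genes 3 of 9 measured were past 2-fold lower in LIP (*Chl1*, *Cadm2* and *Csmd1*), beside 3.49% of all genes, and 0 higher, with a median log2 ratio of -0.47 beside 0.13 over all genes. Over all members 0 of 9 were past 2-fold in either direction, with a median of 0.12 beside 0.14. Without the 6 LIP cells, which held few UMIs of the rule genes, 1 of 9 was past 2-fold lower, *Csmd1*, beside 1.11% of all genes. The median was then 0.06 beside 0.07. Of the rule genes, which chose the cells and are given as description only, *Scn7a*, *Gfra3* and *Cdh19* had log2 ratios of -1.04, -1.11 and -1.03, and of -0.27, -0.44 and -0.52 without these cells. *Kcna1* was at -0.93 and, without them, at -0.37. *Fabp7*, a fatty acid binding protein, went the other way, at 308 CPM in control and 699.6 CPM in LIP, a log2 ratio of 1.16, or 1.88 without these cells and -1.06 without its richest cells. *Apoe* differed little, with a median per cell of 9655 CPM (0 to 24140) in control and 7823 CPM (0 to 69508) in LIP, where 1 cell held 43.9% of its UMIs. Over all members the ratio of *Scn7a* was 0.09, with the 7 control cells that did not pass included.

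*Lgals3*, galectin-3, which is known to rise in Schwann cells that clear myelin, was past 2-fold higher on summed UMIs and not per cell. It was at 1095 CPM (855 to 1381) in control and 3294 CPM (3020 to 3586) in LIP, but a single LIP cell reached 25588 CPM. Without the richest cells the log2 ratio fell from 1.58 to 0.24, without the 6 cells of few rule UMIs it was -0.12, and the median per cell was 843 CPM in control and 487 CPM in LIP. At 1000 UMIs per cell 56.2% of control and 34.6% of LIP cells held it.

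**Figure D5:**
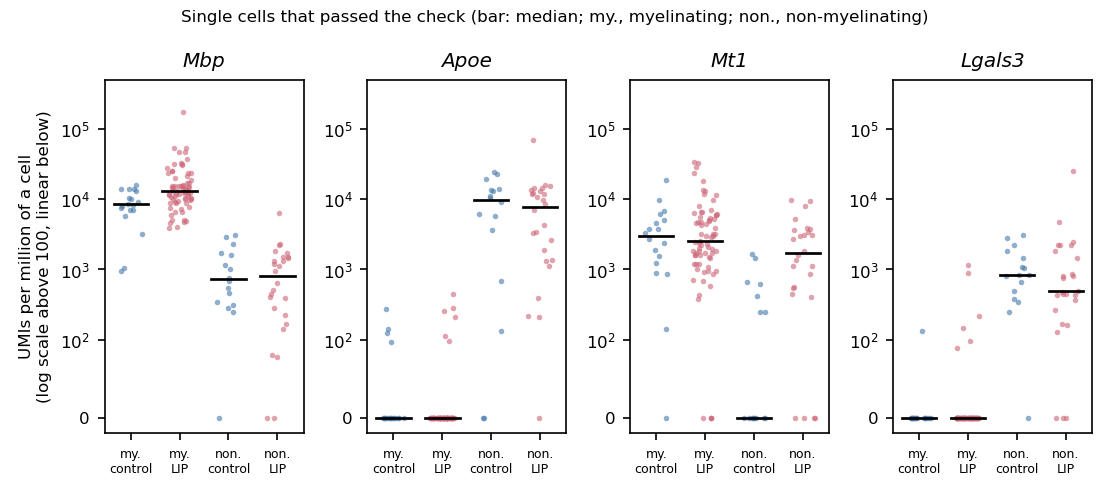
*Mbp*, *Apoe*, *Mt1* and *Lgals3* in CPM of each cell that passed the check (vertical, log scale above 100), for myelinating (my.) and non-myelinating (non.) cells by library; bars are medians. The *Mt1* median is 0 in control and 1726 in LIP non-myelinating cells, and 3032 and 2528 in myelinating cells.

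Of the 20 genes of the injury and repair list 2 in myelinating and 3 in non-myelinating cells reached 50 UMIs. Of these 1 of 2 was past 2-fold lower in LIP myelinating cells, *Atf3*, beside 4.27% of all genes. Without the large control cell it was 2 of 2, where 32 of 1020 genes were lower. In LIP non-myelinating cells 1 of 3 was past 2-fold higher, *Lgals3*, beside 5.16% of all genes. Without the 6 LIP cells it was 0 of 3, beside 2.89%. *Shh*, *Ntf3*, *Lif*, *Nrg1* and *Sprr1a* had 0 UMIs in all 4 groups. In non-myelinating cells *Jun* was at 1079 CPM in control and 1201 CPM in LIP and *Atf3* at 463 and 545 CPM. Below the minimum, *Sox2*, a factor of immature and repair Schwann cells, had 1 UMI in control and 29 in LIP non-myelinating cells, found in 1 of 16 and 12 of 26 cells, a log2 ratio of 2.90 (0.95 to 8.89). *Gap43*, a growth-cone protein also made by Remak cells, had 2 and 25 UMIs, 68% of the latter in 1 cell. *Ngfr*, the low-affinity neurotrophin receptor, had 12 and 36. The LIP counts of *Sox2*, *Gap43* and *Ngfr* include the 6 cells of few rule UMIs, and values without these cells are not given.

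Inflammatory genes had few UMIs. None of the 21 chemokines and cytokines reached 50 UMIs in myelinating cells, and *Cxcl1* alone did so in non-myelinating cells. Over all members, which included cells highest in neutrophil markers, 4 reached it in the myelinating set. Of these, 4 of 4 were past 2-fold higher in LIP with a median log2 ratio of 5.55, beside 8.17% of all genes. The minimum was on the UMIs summed over both libraries, so a gene near 0 in control could reach it only through LIP. This count is therefore a description only. *Il6* and *Ccl7* had 0 UMIs in all 4 groups. *Il1b* had 0 UMIs in both control groups, 11 in LIP myelinating and 6 in LIP non-myelinating cells, while outside both sets it went from 141 to 1825 CPM. *Cxcl10* had 23 UMIs in 3 LIP myelinating and 15 in 3 LIP non-myelinating cells and 0 in control cells. Of the 15 cytokine receptors, *Il6st* and *Tnfrsf12a* were measured in non-myelinating cells, with log2 ratios of -0.05 and 0.65.

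The class I genes *H2-D1*, *H2-K1* and *B2m* were at higher levels in non-myelinating than in myelinating LIP cells. *H2-D1* was at 1110 CPM in control and 1405 CPM in LIP non-myelinating cells, against 258 and 94.9 CPM in myelinating cells, and *H2-K1* was at 662 against 79.8 CPM in LIP. *B2m*, the shared light chain of class I molecules, was at 1018 CPM (787 to 1295) and 1548 CPM (1362 to 1752), a log2 ratio of 0.60, against 1015 and 589 CPM in myelinating cells, where the large control cell held 48.1% of the control UMIs and the control level was 671 CPM without it. Of the interferon and antigen-presentation list, 0 of the 4 measured genes differed 2-fold between libraries in non-myelinating cells that passed. This stood beside 8.65% of all genes, and the median log2 ratio of the list was 0.53. Without the 6 LIP cells 1 of 4 was past 2-fold higher, beside 2.89% of all genes. Over all members 4 of 4 were past 2-fold higher in LIP, beside 7.48% of all genes, with a median of 1.18. The class II gene *H2-Aa* had at most 2 UMIs in each group, against 891 and 712 CPM outside both sets. Of the 12 cell cycle genes 0 reached 50 UMIs, and *Mki67*, a marker of dividing cells, had 1 and 2 UMIs in control and LIP myelinating cells and 0 and 2 in non-myelinating cells.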

How the data were processed

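Single-cell RNA libraries of 1 control and 1 LIP pool were made with 10x 3′ v3 chemistry. The deposited matrices hold raw UMI counts of 31053 genes per barcode, which the authors made with Cell Ranger (3.1.0 in the matrix header) on mm10. Barcodes with 200 to 7500 genes, at most 60000 UMIs and at most 10% mitochondrial UMIs were kept. The members and lists were chosen with earlier results of these data known, and the check on other Schwann genes was added after the values were seen. UMIs were summed per set and library and scaled to 1000000 (CPM). Genes with at least 50 UMIs were compared at a threshold of 2-fold after adding 10 CPM. Named genes were those of the lists, the 10 highest and 10 lowest ratios of each comparison, the 10 most abundant and the 5 nearest neighbours; other genes past 2-fold by 3 measures, such as *Gfra1* or *Junb*, were chosen after their values were seen. No doublet caller was run. Shares were also computed on cells thinned to 1000 UMIs. Intervals were exact Clopper-Pearson, Poisson or conditional binomial. Promoter windows were taken from RefSeq and gene positions from GENCODE M21. Python 3.11.15, numpy 2.4.6, scipy 1.17.1, pandas 2.3.3 and matplotlib 3.10.9 were used, and the scripts were tested on simulated data. Alternatives changed the marker number, mitochondrial limit, UMI minimum, added CPM, scaling, weighting of cells and the rule UMIs per cell. Some genes are not reported here.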

Additional observations from a re-analysis of the deposited data

Results flagged for a closer look

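Barcodes outside the cell limits, which were left out of both sets, met the myelinating rule 95 times in the LIP library and 5 times in the control library. They were singled out because such a signal lay in barcodes outside both sets and was higher than in the control library. Their median depth was 956 UMIs in LIP and 1447 UMIs in control, and 24 of the LIP and 1 of the control barcodes were over 20% mitochondrial UMIs. Of the LIP barcodes 92 were over the mitochondrial limit and 3 over the UMI limit. What set their number was not tested.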

How the results depend on the processing

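No paired analysis was possible because each condition has 1 library. Myelinating cells were 9.83% of LIP cells, and 4.89% with a mitochondrial limit of 5%, 15.2% with 20%, and 7.69% among cells that passed the check. At 5% there were 2.12 myelinating cells per non-myelinating cell in LIP. Without members holding 2 markers of another class, myelinating cells were 1.36% of control and 6.84% of LIP cells and non-myelinating cells 1.59% of control cells. Counts of genes past 2-fold over all members (344 myelinating, 169 non-myelinating, 165 between sets) became 129, 32 and 100 with at least 3 of 5 markers, 39, 41 and 68 without those members, 1764, 3030 and 976 with no UMI minimum, 165, 71 and 86 with a minimum of 100 UMIs, and 80, 62 and 106 among cells that passed. The count between sets was 104 at a 5% mitochondrial limit, and that of the myelinating set 204 with 50 CPM added. Among cells that passed, the myelinating and non-myelinating counts were 99 and 89 without the cell richest in each gene, 112 and 59 with each cell weighing the same, 67 and 74 without the largest control cell, and 58 and 18 with at least 20 rule UMIs per 10000 in each cell.

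Among the gene values recomputed under each setting, log2 ratios of LIP over control that changed sign against all members were, with at least 3 of 5 markers, *Apoe* 1.85, *Lgals3* 0.76 and *Mt2* 0.10 in myelinating and *Lgals3* -0.34 and *Ngfr* -0.12 in non-myelinating cells. Without members holding 2 other markers they were *Lgals3* 2.12 and *Mt2* 0.40 in myelinating cells, and among cells that passed 0.19 and 0.40. Of 25 gene values past 2-fold over all members, 16 were past it in the same direction among cells that passed. Other values turned among cells that passed as well. In non-myelinating cells *Scn7a* went from 0.09 to -1.04 and the median of the compact myelin list from 0.80 to -0.29. Without the 6 LIP cells of few rule UMIs this list median was 0.01. In myelinating cells the median of the interferon and antigen-presentation list went from 0.49 to -1.36, over 3 measured genes. Without the large control cell 1 gene of that list was measured, at -0.19. The causes were not tested. With 16 and 26 non-myelinating cells that passed, genes of few UMIs had wide counting intervals.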
